A study of Mus musculus with 8 samples.

Results

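Schwann cells wrap and support the axons of peripheral nerves, and 33 genes of these cells, of peripheral myelin and of the node of Ranvier were followed in 8 RNA sequencing libraries of mouse leg muscle. The genes were taken by symbol from a list that was chosen with earlier results of these data known. All 33 had a row in the deposited tables of 24848 genes, and 32 had enough reads to be tested; Cmtm5, with 43 counts over the 8 libraries, did not.

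The libraries came from the tibialis anterior, a muscle of the shin, of male Leprdb/db mice, an obese and diabetic strain without functional leptin receptors. Every animal had undergone surgery that interrupts blood flow to a hind limb, and the ischemic muscle was taken on day 28. The placebo group (n = 4 libraries) ate a control diet, and the praliciguat group (n = 4) ate a diet with 75 ppm praliciguat from day -3, for 31 days, a level set to match the peak plasma concentration of 10 mg/kg/day given by mouth. Praliciguat is a stimulator of soluble guanylate cyclase, which produces cGMP when nitric oxide binds it. The age of the animals is not given in the labels, the db mutation, the surgery and the sex are common to both groups, and muscle without ischemia was not analysed here. No label states outright whether libraries came from different mice; p-values therefore reflect the spread among these libraries, which may be in part technical.

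A myelinating Schwann cell wraps a single stretch of axon in layers of its own membrane. The transcription factors Sox10 and Egr2 switch on genes for the proteins that compact those layers, for the junctions that link the uncompacted layers, and for the enzymes that make myelin lipids. After nerve injury, Schwann cells lower this programme and become repair cells, which carry the neurotrophin receptor encoded by Ngfr and need the transcription factor Jun. A muscle sample holds Schwann cells only where nerve branches run through it and at the nerve endings on the fibres.

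Total expected counts ranged from 21099764 in placebo 1 to 31896205 in praliciguat 3. The 7 muscle fibre markers (Ckm, Acta1, Myh4 and others) summed to 183634 to 205623 TPM, the transcript share of a gene after correction for its length, so the defining markers of the labelled tissue were present. The 7 Schwann cell markers fixed for the label (S100b, Sox10, Cdh19, Erbb3, Prx, Mbp, Mag) had reads in each of the 8 libraries. The sample titles carry numbers that fall in a lower run (placebo 1 and 2, praliciguat 1 and 2) and an upper run (placebo 3 and 4, praliciguat 3 and 4), and the labels do not say what the numbers mean. Praliciguat 3 stood apart in other cell types: its macrophage markers summed to 536 TPM against 48.3 to 198 TPM in the other 7 libraries, and its fibroblast markers to 2555 TPM against 396 to 1342 TPM.

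Myelin genes had lower mean levels with praliciguat, the libraries of each group differed widely, and no gene of the set passed the test. Of the 32 tested genes, 27 had a log2 fold change (praliciguat against placebo) below 0, which is 84.4% against 44.8% of all 13569 tested genes, and the median was -0.43 against 0.02 for all genes. The lowest was Ugt8a at -1.12 ± 0.69 (SE) and the highest Ngfr at 0.79 ± 0.28. The 5 genes above 0 were Ngfr, Scn7a (0.38), Art3 (0.28), Nfasc (0.22) and Nrcam (0.18). Many of the 32 genes vary together, and some are also made by cells other than Schwann cells. These counts are therefore a description and not evidence from 32 independent measurements. The set was also chosen with earlier results of these data known. In such bulk tissue, fewer Schwann cells and less RNA per Schwann cell cannot be told apart.

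With edgeR's quasi-likelihood test and Benjamini-Hochberg adjustment over all tested genes, 0 of the 32 genes were called, where 0% of all 13569 genes were (smallest adjusted p in the set 0.681, for Ngfr). At an unadjusted p under 0.05 there were 2 of 32 (6.25%), Ngfr on the higher side and Foxd3 on the lower, where 5.73% of all tested genes passed, 3.78% lower and 1.95% higher. That share is near the background. DESeq2 called 0 of the genes as well, while it called 126 of 13968 genes overall (0.902%). The 4 praliciguat libraries lay apart from the 4 placebo libraries in 1 of 32 genes, Foxd3, against 3.86% of all genes (2.54% lower and 1.32% higher).

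The spread within the groups was wide. The ratio of the highest to the lowest library in CPM (counts relative to the scaled library size) had a median of 4.44 over the 32 genes and 1.62 over all tested genes. The biological coefficient of variation fitted by edgeR had a median of 0.424 against 0.187, and it lay above the trend for genes of like abundance in 23 of 32 genes (71.9%) against 24.2% of all genes. Placebo 1 was the highest library for 24 of 32 genes (75.0%), while it was the highest for 13.0% of all genes. Praliciguat 4 was the lowest for 21 of 32 (65.6%), against 12.2% of all genes. Without placebo 1, 22 of the 32 genes were below 0 and the median was -0.14, and without praliciguat 4, 24 were, with a median of -0.28. Without praliciguat 1 the median was -0.73.

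**Figure D1:**
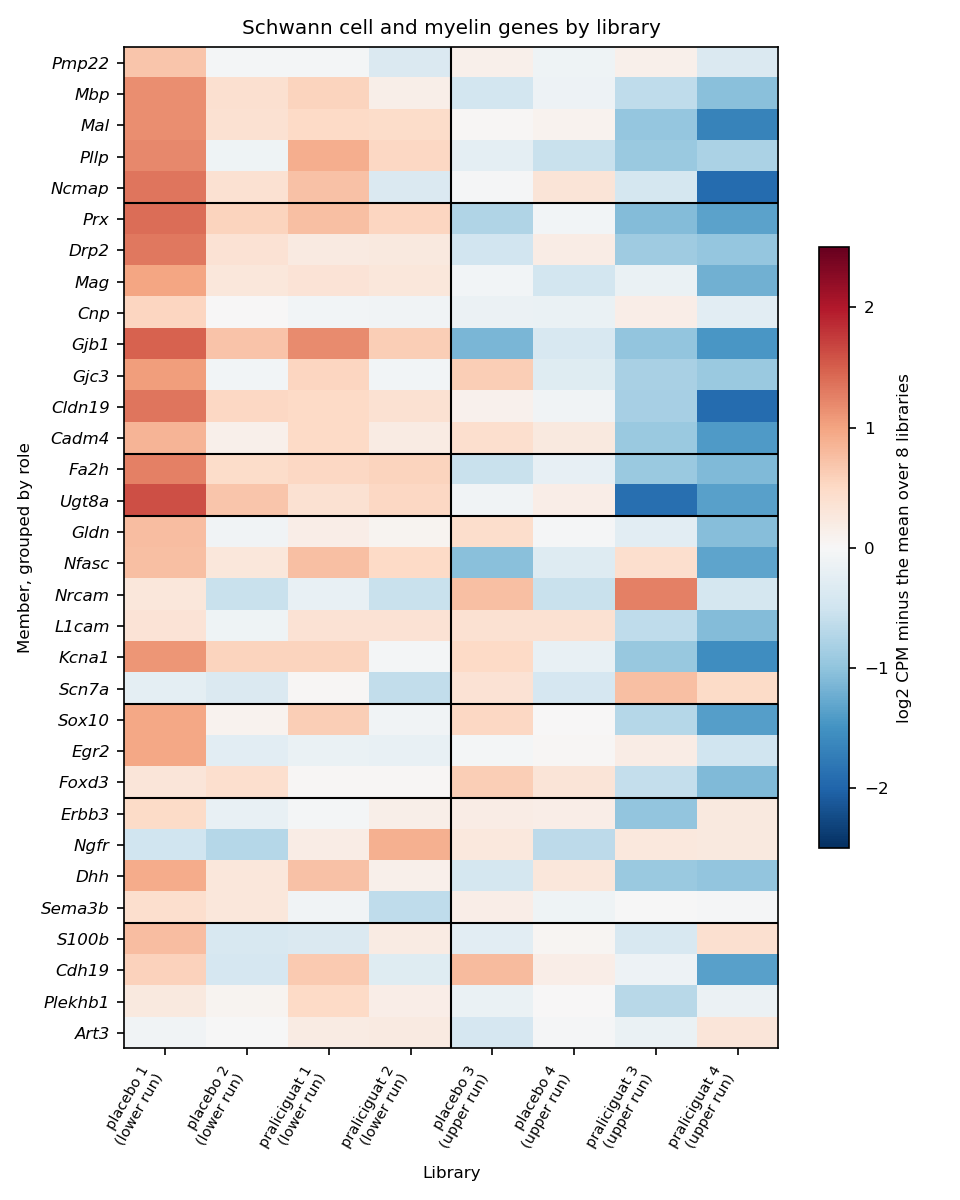
Log2 CPM of the 32 tested genes in each library, as the difference from the gene's mean over the 8 libraries (colour), with genes grouped by role from top to bottom and libraries ordered by run and group. Placebo 1 was the highest library for 24 genes and praliciguat 4 the lowest for 21.

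The 5 tested proteins of the myelin membrane were all on the lower side (median log2 fold change -0.50), with 0 of 5 at an unadjusted p under 0.05. Pmp22, a small membrane protein of compact myelin whose gene dosage matters in human hereditary neuropathy, was the most abundant (chr11:63128982-63159547 on GRCm38). It was at 117, 67.6, 84.2 and 69.4 TPM in placebo 1 to 4 and at 67.3, 52.4, 84.6 and 56.9 TPM in praliciguat 1 to 4. Placebo 1 stood above the rest, praliciguat 3 matched placebo 3, and the groups overlapped. Its means were 84.6 ± 23.1 and 65.3 ± 14.3 TPM (SD, n = 4 each) and its log2 fold change was -0.35 ± 0.19 (edgeR adjusted p = 0.961), and -0.13 without placebo 1.

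Mbp, the myelin basic protein that holds the inner faces of the membrane together, was at 66.1, 36.3, 19.8 and 27.0 TPM in placebo 1 to 4. With praliciguat it was at 40.5, 29.8, 15.8 and 12.2 TPM. In each group the lower run, listed first, held the higher values, and the 4 lower-run libraries all lay above the 4 upper-run libraries. The log2 fold change was -0.50 ± 0.43 (edgeR adjusted p = 0.984), -0.10 without placebo 1 and -0.81 without praliciguat 1. Mal and Pllp, 4-pass membrane proteins of myelin rafts, and Ncmap, a noncompact myelin-associated protein, were lower in level: Mal had 4.12 ± 1.6 TPM in placebo and 2.54 ± 1.61 TPM with praliciguat (SD, n = 4). Pllp ranged from 1.05 to 3.68 TPM in placebo and from 0.80 to 2.85 TPM with praliciguat, and Ncmap from 1.55 to 4.15 and from 0.30 to 2.58 TPM. Pllp shares 54.2% of its exon bases with a gene on the opposite strand, Gm45767, and the strand setting of the counting was not given in the sources used here. Cmtm5 was at 0.45 to 0.65 TPM in placebo and 0.18 to 0.73 TPM with praliciguat, from 2 to 8 counts per library, a depth at which no difference was detectable.

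The next group holds proteins of uncompacted myelin and of its junctions. Prx, or periaxin, and Drp2 link the outer myelin membrane to the basal lamina, Mag faces the axon, and Cadm4 binds axonal adhesion molecules. Cnp is an enzyme that keeps cytoplasmic channels open, Gjb1 (connexin 32) forms gap junction channels, Gjc3 belongs to the same family, and Cldn19 seals the layers. Sequence upstream of 3 of these genes is shown because Sox10 and Egr2 are the known activators of peripheral myelin genes and because these 3 carry a match to a SOX or EGR sequence and had all 4 upper-run libraries below all 4 lower-run libraries. They were picked for the match: Mal, Ugt8a, Cldn19 and Pllp, whose runs lay apart in the same way, have windows with 0 matches. So have 2 of the 4 windows of Gjb1 and 1 of the 3 of Mag. Plekhb1, a gene outside this group, also had runs that lay apart and a match in 1 of its 2 windows, and is not shown. For Mbp, Drp2 and Fa2h, whose runs lay apart too, no window was at hand. Each stretch is the 250 bases before a RefSeq start site on GRCm38.p6, written in the direction of transcription, and capitals mark matches to ACAAAG or ACAATG (SOX factors) or GCGTGGG (EGR factors) on either strand. The stretches are chrX:101383482-101383731 (plus strand, the most downstream of 4 start sites of Gjb1), chr7:30914923-30915172 (minus strand) and chr7:27499074-27499323 (plus strand).
Gjb1: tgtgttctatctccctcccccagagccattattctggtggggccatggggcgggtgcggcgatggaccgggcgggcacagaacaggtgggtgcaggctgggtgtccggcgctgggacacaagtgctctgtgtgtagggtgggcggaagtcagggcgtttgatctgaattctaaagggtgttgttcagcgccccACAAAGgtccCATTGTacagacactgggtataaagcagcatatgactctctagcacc
Mag: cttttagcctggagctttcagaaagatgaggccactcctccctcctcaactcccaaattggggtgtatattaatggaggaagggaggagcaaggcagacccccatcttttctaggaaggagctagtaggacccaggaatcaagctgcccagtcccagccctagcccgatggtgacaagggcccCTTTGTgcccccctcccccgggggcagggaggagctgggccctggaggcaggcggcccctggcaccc
Prx: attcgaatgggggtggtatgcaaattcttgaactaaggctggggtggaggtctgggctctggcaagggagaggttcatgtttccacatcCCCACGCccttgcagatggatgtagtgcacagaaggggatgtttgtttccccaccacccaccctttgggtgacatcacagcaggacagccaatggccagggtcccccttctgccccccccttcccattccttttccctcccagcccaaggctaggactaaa

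The Gjb1 stretch holds ACAAAG starting 57 bases and, on the other strand, ACAATG starting 47 bases upstream of the start site. In Mag an ACAAAG lies on the other strand 67 bases upstream, and in Prx a GCGTGGG on the other strand 161 bases upstream. RefSeq windows of 300 bases (250 before and 50 after each start) were at hand for 25 of the 33 genes. ACAAAG was in 15.6% of the 45 windows of these genes and in 18.7% of all 32851 windows, ACAATG in 4.44% and 12.6%, either of them in 17.8% and 28.6%, and GCGTGGG in 11.1% and 5.04%. A match of this length is a description of the letters and not a site. Windows with GCGTGGG belonged to Cnp, Foxd3, Ncmap, Prx and Scn7a, and those with a SOX sequence to Art3, Cadm4, Cnp, Gjb1, Mag and Plekhb1.

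All 8 junction and uncompacted myelin genes were below 0 (median log2 fold change -0.57), with 0 of 8 at an unadjusted p under 0.05. Prx was at 12.6, 6.69, 2.85 and 4.64 TPM in placebo 1 to 4 and at 7.50, 6.34, 2.27 and 1.80 TPM in praliciguat 1 to 4. As with Mbp, the lower-run libraries were the high ones in each group. Its log2 fold change was -0.51 ± 0.59 (edgeR adjusted p = 0.984), -0.01 without placebo 1 and -0.88 without praliciguat 1. Drp2 (chrX:134404124-134456574) had the lowest p of the group, with 5.26, 2.57, 1.57 and 2.47 TPM in placebo and 2.36, 2.33, 1.18 and 1.05 TPM with praliciguat. Placebo 1 was again the high library and placebo 3 lay within the praliciguat range (log2 fold change -0.73 ± 0.43, edgeR adjusted p = 0.976). Without placebo 1 the change was -0.29.

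Cnp (chr11:100574909-100591875), the most abundant of these, was the steadiest. It was at 16.1, 10.4, 10.4 and 10.1 TPM in placebo and at 9.97, 9.70, 13.0 and 9.12 TPM with praliciguat. Placebo 1 stood well above the other 3 placebo libraries, and the change was -0.15 ± 0.17 (edgeR adjusted p = 0.984), or 0.05 without placebo 1. Gjb1 was the most variable gene of the set, at 1.19, 0.66, 0.10 and 0.24 TPM in placebo and 0.95, 0.55, 0.12 and 0.05 TPM with praliciguat. These values rest on 21, 15, 2 and 5 counts and on 19, 12, 3 and 1 counts, and they split by run and not by group. Cldn19 was at 2.16 ± 0.87 TPM in placebo and 1.18 ± 0.83 TPM with praliciguat (SD, n = 4), and praliciguat 4 was lowest at 0.31 TPM. Mag, Gjc3 and Cadm4 were at 1.16 ± 0.53, 1.39 ± 0.61 and 4.54 ± 1.10 TPM in placebo. With praliciguat they were at 0.86 ± 0.35, 0.87 ± 0.44 and 2.75 ± 1.54 TPM (SD, n = 4 each), with overlap in all 3. Prx, Cnp and Cldn19 share 5.38%, 4.23% and 2.11% of their exon bases with genes on the opposite strand.

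The enzymes that make the galactolipids of myelin lay on the same side as the structural genes. Ugt8a (chr3:125865272-125938682), which makes galactosylceramide, was at 1.18, 0.57, 0.34 and 0.41 TPM in placebo and at 0.45, 0.49, 0.06 and 0.10 TPM with praliciguat. The last 2 values, from praliciguat 3 and 4, rest on 4 and 6 counts. Its log2 fold change was the lowest of the 32 but had a wide error (-1.12 ± 0.69, edgeR adjusted p = 0.984), and it was -0.62 without placebo 1. Fa2h, which hydroxylates the fatty acids of these lipids, was at 2.45, 1.31, 0.67 and 0.86 TPM in placebo and 1.36, 1.38, 0.50 and 0.41 TPM with praliciguat, so that both groups were high in the lower run. Its change was -0.49 ± 0.56 (edgeR adjusted p = 0.984), -0.01 without placebo 1 and -0.78 without praliciguat 2.

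Genes of the node of Ranvier and of contact with the axon did not share a direction: 3 of 6 were below 0 and 0 of 6 had an unadjusted p under 0.05. Kcna1 encodes a potassium channel subunit that neurons make and that lies in the axon next to the node. It was at 3.43, 2.21, 2.33 and 1.42 TPM in placebo and at 2.22, 1.43, 0.85 and 0.52 TPM with praliciguat. Praliciguat 3 and 4 lay below all placebo libraries and praliciguat 1 and 2 within their range (log2 fold change -0.85 ± 0.45, edgeR adjusted p = 0.956). Without praliciguat 1 the change was -1.29. Scn7a (chr2:66673426-66784910), a sodium channel of Schwann cells that do not myelinate, was at 2.42, 2.12, 3.86 and 2.19 TPM in placebo and at 2.78, 1.74, 5.07 and 3.93 TPM with praliciguat. Its highest libraries were praliciguat 3 and 4 and placebo 3, all of the upper run, where the myelin genes were low (0.38 ± 0.30, edgeR adjusted p = 0.984). Its change was 0.16 without praliciguat 3 and 0.59 without placebo 3. Praliciguat 3 and 4 and placebo 3 also had the highest summed adipocyte markers (5077, 3744 and 3560 TPM) and macrophage markers (536, 124 and 198 TPM). For summed fibroblast markers only praliciguat 3 and placebo 3 stood highest (2555 and 1342 TPM). Which cells the Scn7a reads came from was not tested. Gldn (gliomedin), Nfasc (neurofascin), Nrcam and L1cam are adhesion molecules that organise the node or the axon contact. Gldn ranged from 0.43 to 0.86 TPM in placebo and from 0.21 to 0.52 TPM with praliciguat, and L1cam from 1.37 to 2.12 and from 0.70 to 1.90 TPM. Nfasc lay between 0.12 and 0.58 TPM and Nrcam between 0.14 and 0.60 TPM over the 8 libraries, and praliciguat 3 was the highest for Nrcam.

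**Figure D2:**
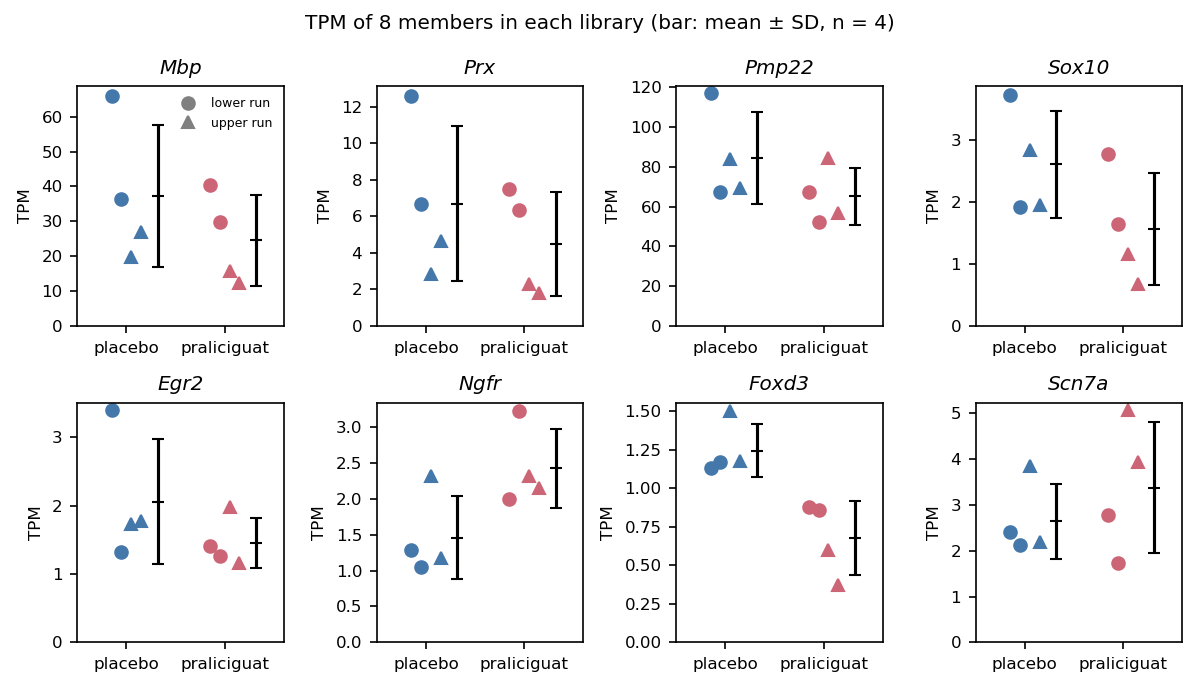
TPM of 8 genes in each library (points, round for the lower and triangular for the upper run; the bar is the mean and SD, n = 4 per group). Mbp and Prx are high in the lower run of both groups, Ngfr has 3 placebo libraries below all 4 praliciguat libraries, and Foxd3 is the gene whose groups do not overlap.

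The lineage transcription factors were below 0 as well. Sox10 (chr15:79154913-79164490), the factor that marks and maintains Schwann cells in all states, was at 3.71, 1.91, 2.84 and 1.94 TPM in placebo and at 2.77, 1.64, 1.16 and 0.67 TPM with praliciguat. Praliciguat 1 lay inside the placebo range and the other 3 below it (log2 fold change -0.68 ± 0.43, edgeR adjusted p = 0.984). Leaving out praliciguat 4 gave -0.42 and leaving out praliciguat 1 gave -1.13. Egr2, the master factor of myelination, was at 3.39, 1.32, 1.73 and 1.78 TPM in placebo and at 1.41, 1.26, 1.98 and 1.16 TPM with praliciguat. Without placebo 1 its groups covered nearly the same range, and its change was -0.41 ± 0.31 (edgeR adjusted p = 0.984), or -0.06 without that library. Foxd3 (chr4:99656299-99658671), a factor of neural crest and immature glia, was at 1.13, 1.17, 1.5 and 1.18 TPM in placebo and at 0.88, 0.86, 0.60 and 0.37 TPM with praliciguat. Every praliciguat library lay below every placebo library, at 0.68 ± 0.24 against 1.25 ± 0.17 TPM (SD, n = 4). The log2 fold change was -0.83 ± 0.32 (edgeR adjusted p = 0.761), so it did not pass over all genes. These values rest on 13 to 51 counts per library.

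Among receptors and signals, Ngfr went the other way. Ngfr (chr11:95568818-95587698), the low-affinity neurotrophin receptor of immature and repair Schwann cells that some other cells also carry, was at 1.29, 1.05, 2.31 and 1.18 TPM in placebo. With praliciguat it was at 1.99, 3.22, 2.32 and 2.15 TPM. Placebo 1, 2 and 4 lay below all 4 praliciguat libraries, and placebo 3 lay among them. The means were 1.46 ± 0.58 and 2.42 ± 0.55 TPM (SD, n = 4), with a log2 fold change of 0.79 ± 0.28 (edgeR adjusted p = 0.681; DESeq2 adjusted p = 0.316). Over the alternatives tried, its log2 fold change stayed between 0.49 and 1.07 and its adjusted p between 0.316 and 1.

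Sema3b, a semaphorin that steers axons and is made by several cell types, was at 9.46, 7.98, 8.08 and 6.71 TPM in placebo and at 6.22, 4.12, 7.27 and 6.55 TPM with praliciguat. In TPM praliciguat 3 alone exceeded the lowest placebo library. In CPM praliciguat 1, 3 and 4 did (12.9, 13.6 and 13.4 against 12.6 in placebo 4). The log2 fold change of Sema3b was -0.37 ± 0.17 (edgeR adjusted p = 0.893), and -0.24 without praliciguat 2. Erbb3, the receptor through which axonal neuregulin acts on Schwann cells, was at 1.59 ± 0.33 TPM in placebo and 1.26 ± 0.39 TPM with praliciguat (SD, n = 4). Dhh, the hedgehog signal by which Schwann cells shape the nerve sheath, was at 1.18 ± 0.45 and 0.83 ± 0.49 TPM. Dhh shares 12.4% of its exon bases with Rhebl1 on the same strand and 25.2% with a gene on the opposite strand, so its counts are less certain.

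The other 4 lineage markers had a median log2 fold change of -0.07, with 3 of 4 below 0. S100b, a calcium-binding protein of Schwann cells that is not particular to them, was at 3.44 ± 1.40 TPM in placebo and 3.08 ± 0.86 TPM with praliciguat (SD, n = 4). Cdh19, a cadherin of Schwann cell precursors and later stages, was at 1.0 ± 0.39 and 0.68 ± 0.37 TPM. Plekhb1, a membrane protein with a pleckstrin homology domain, was at 64.1 ± 6.68 and 60.4 ± 18.3 TPM. Art3 (chr5:92331799-92414628), a gene of the ADP-ribosyltransferase family that skeletal muscle also expresses, was at 362, 364, 300.2 and 383 TPM in placebo and at 421, 420, 355 and 467 TPM with praliciguat. Praliciguat 3 alone fell within the placebo range (log2 fold change 0.28 ± 0.14, edgeR adjusted p = 0.916). At a mean of 384 TPM over the 8 libraries, Art3 was the most abundant gene of the set, and its highest library exceeded its lowest 1.65-fold in CPM, the least of the 32.

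**Figure D3:**
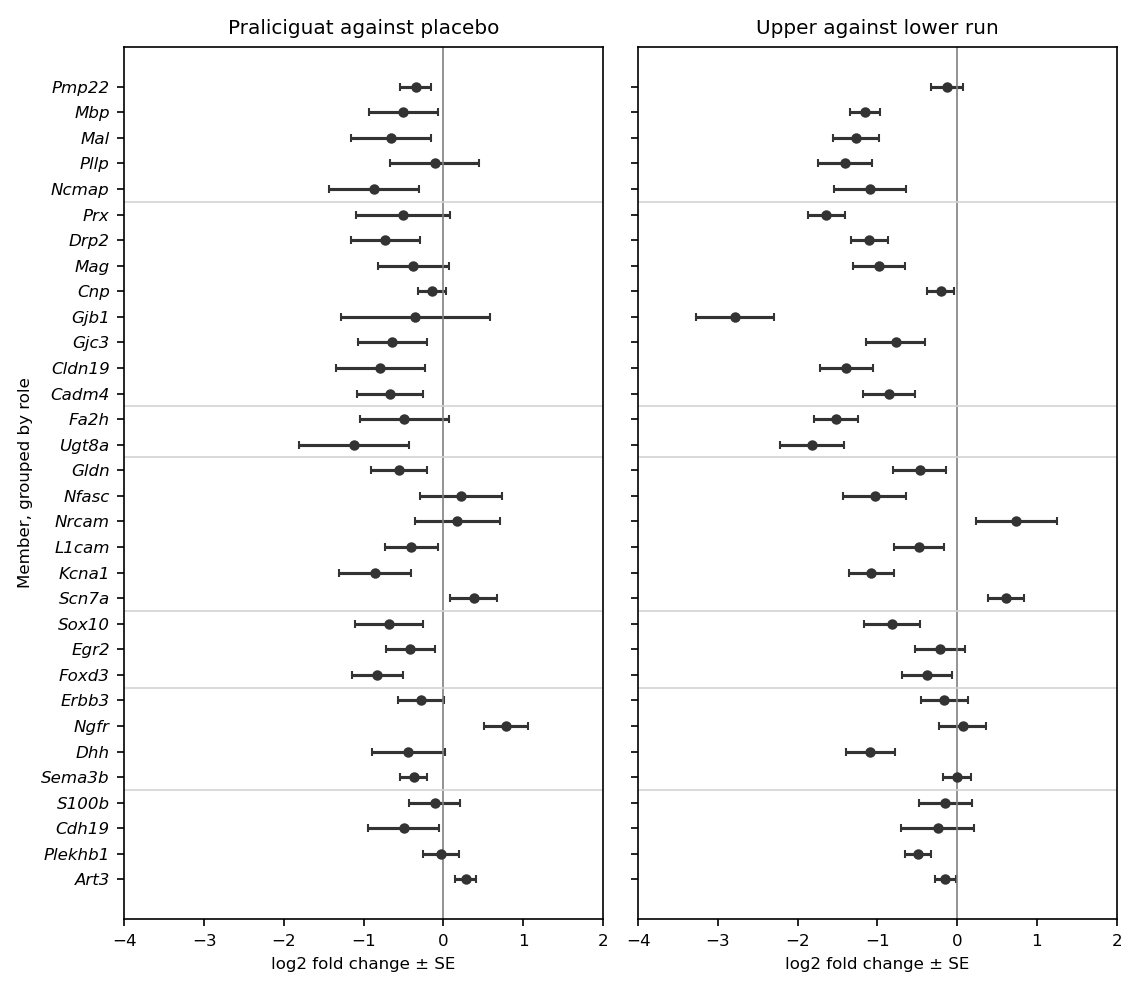
Log2 fold change ± SE from edgeR for the 32 tested genes, by role: praliciguat against placebo on the left, upper against lower run on the right. The left panel is from the fit with treatment only and the right from the fit with treatment and run, so their errors are not on the same footing. On the left 27 genes lie below 0 with wide errors; on the right 29 do, with Gjb1 lowest.

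Myelinating markers were then compared with markers of the repair state. Both lists were chosen with earlier results of these data known. The 17 tested myelinating genes were all below 0 (median log2 fold change -0.50), yet 0 of 17 had an unadjusted p under 0.05 and in 0 of 17 did the groups lie apart. Placebo 1 was the highest library for 17 of 17 and praliciguat 4 the lowest for 14 of 17. Without placebo 1, 14 of 17 were below 0 and their median was -0.13; without praliciguat 4 it was -0.29, and without praliciguat 1 it was -0.88. Of the 3 genes of immature or repair cells in the set, Ngfr was above 0, and Foxd3 and L1cam (-0.40 ± 0.33) were below.

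A further list of 16 repair genes held 9 with enough reads. Of these 5 were below 0, with a median log2 fold change of -0.03 (-0.33 without praliciguat 3 and 0.19 without praliciguat 1), and 0 were called. Jun, the factor that drives the repair state and is expressed in many cells, was at 59.7 ± 4.92 TPM in placebo and 65.9 ± 9.47 TPM with praliciguat (SD, n = 4). Gdnf, a neurotrophic factor made by repair cells and by muscle, was at 1.1, 0.66, 1.2 and 0.57 TPM in placebo and at 0.92, 1.39, 1.49 and 1.58 TPM with praliciguat. Its log2 fold change was 0.72 ± 0.27 (edgeR adjusted p = 0.726), and praliciguat 1 lay inside the placebo range. Ncam1, an adhesion molecule of repair cells and of denervated fibres, was at 4.55, 5.07, 8.29 and 3.95 TPM in placebo and at 2.42, 2.38, 5.71 and 2.19 TPM with praliciguat. Here praliciguat 3 alone reached the placebo range (-0.75 ± 0.32, edgeR adjusted p = 0.836). Sox2, Shh, Olig1 and Gfap, markers of immature or repair Schwann cells, had mean levels of 0.07 TPM or less in each group.

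The summed TPM of the 18 myelinating genes per summed TPM of the 16 repair genes and the 3 immature or repair genes was 2.85, 1.97, 1.51 and 1.71 in placebo and 1.97, 1.41, 1.31 and 0.94 with praliciguat. The groups overlapped, at 2.01 ± 0.59 and 1.41 ± 0.42 (SD, n = 4), and the difference of -0.60 was -0.32 without placebo 1. Pmp22 made up 51.7% of the myelinating sum in placebo and Jun 72.4% of the repair sum, and both are made by other cells too. Without Cnp, Cadm4 and Pmp22, the myelinating sum was 116, 62.2, 38.4 and 48.7 TPM in placebo and 70.7, 54.5, 28.4 and 20.5 TPM with praliciguat. Without Jun, Id2 and Ncam1, the repair sum was 11.4, 9.11, 15.3 and 10.6 TPM against 11.7, 10.9, 13.2 and 8.0 TPM, with no gap between the groups. Ngfr per Sox10 in TPM was 0.35, 0.55, 0.81 and 0.61 in placebo and 0.72, 1.96, 2.0 and 3.21 with praliciguat. Praliciguat 1 lay inside the placebo range and the other 3 above it, and Mbp per Sox10 overlapped throughout (14.4 ± 5.42 and 16.2 ± 2.38, SD, n = 4). Neither ratio to Sox10 was among the planned comparisons, and Sox10 had only 27 counts in praliciguat 4.

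**Figure D4:**
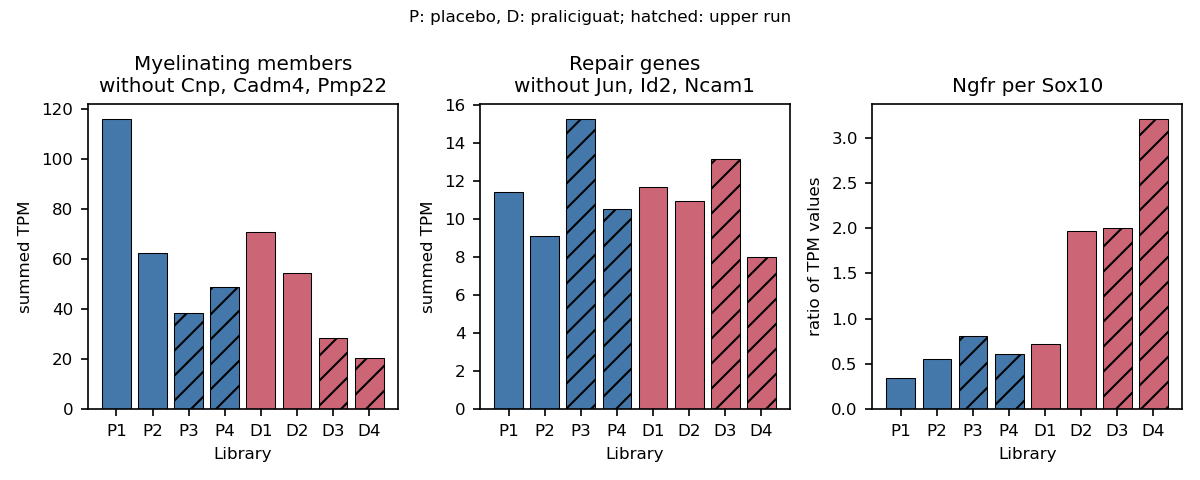
Summed TPM of myelinating genes, summed TPM of repair genes (each without the genes that other cells express widely) and Ngfr per Sox10 in each library (P, placebo; D, praliciguat; hatched bars, upper run). Myelinating sums run from 20.5 to 116 TPM, repair sums from 8.0 to 15.3 TPM, and Ngfr per Sox10 is highest in praliciguat 4 at 3.21.

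Between the runs of the title numbers, the myelin genes differed by a larger median than between the treatments. In a fit with treatment and run, a test added after the data were seen, 29 of 32 genes were lower in the upper run (90.6% against 46.8% of all genes), with a median log2 difference of -0.80 against 0.02. At an unadjusted p under 0.05 there were 17 of 32 lower and 1 higher, against 14.3% of all genes (5.71% lower). None was called after adjustment (0 of 32, and 0% of all genes; smallest adjusted p in the set 0.241). In 11 of 32 genes all 4 upper-run libraries lay below all 4 lower-run libraries, against 3.35% of all genes, or 6.43% when both directions are counted. Of the 11, 10 were myelinating genes, and the 17 myelinating genes were lower in the upper run by a median of -1.10.

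By gene, the log2 difference between the upper and the lower run was -1.15 ± 0.19 for Mbp, -1.64 ± 0.23 for Prx and -1.53 ± 0.28 for Fa2h. It was -1.82 ± 0.40 for Ugt8a and -2.79 ± 0.49 for Gjb1, the latter from few counts. Pmp22 (-0.13 ± 0.20), Cnp (-0.21 ± 0.17), S100b (-0.15 ± 0.33) and Ngfr (0.07 ± 0.29) had smaller differences. Scn7a lay on the other side, at 0.61 ± 0.22 (edgeR adjusted p = 0.311).

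With the run as a block, the treatment difference was on the lower side in the same number of genes. Again 27 of 32 were below 0 (median -0.51), and 11 of 32 had an unadjusted p under 0.05, against 7.22% of all genes. The block is part of the same fit as the run test, which was added after the data were seen. Because the runs lay apart in these genes more often than in all genes, this count is a description and not separate support for a treatment difference. The 11 were Mbp, Prx, Drp2, Cldn19, Cadm4, Mal, Ugt8a, Kcna1, Sox10, Foxd3 and, on the higher side, Ngfr. None of the 32 was called (smallest adjusted p 0.375, for Kcna1), where 3 of all genes were (0.0221%). Mbp, for example, went from -0.50 ± 0.43 to -0.51 ± 0.19 (edgeR adjusted p = 0.576). Within the lower run 24 of 32 genes were below 0 (75.0%, against 51.4% of all genes; median difference in log2 CPM -0.26), and within the upper run 25 of 32 (78.1% against 48.4%; median -0.60). Each run holds 2 libraries per group. The test of whether the treatment difference itself differed between the runs gave 2 of 32 genes at an unadjusted p under 0.05, L1cam and Cadm4, against 16.3% of all genes, and 0 of 32 after adjustment, against 0.0147%.

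Other cell types differed between the same libraries. The macrophage, fibroblast and adipocyte lists had median log2 differences between upper and lower run of 1.40, 0.92 and 1.36, with all 18 genes above 0. The perineurium list, the sheath around nerve bundles, was lower in the upper run in 4 of 5 tested genes (median -0.90). By treatment, summed adipocyte markers were 1441 to 3560 TPM in placebo and 1919 to 5077 TPM with praliciguat. The perineurium sum was 19.3 to 28.7 TPM in placebo and 15.7 to 23.4 TPM with praliciguat, with 4 of 5 tested genes below 0. Of 6 markers of fibroblasts inside the nerve, 4 were below 0 (median -0.18). The 5 endothelial markers were all below 0 (median -0.35), and their sum was 233 to 289 TPM in placebo and 163 to 231 TPM with praliciguat. In TPM the sums did not overlap, but only narrowly, with 231.2 in praliciguat 1 against 232.6 in placebo 4. By gene in CPM, the groups lay apart in 1 of the 5, Tie1, against 3.86% of all genes. Of these 5 genes, 3 had an unadjusted edgeR p under 0.05 (60%, against 5.73% of all genes), and 0 were called. Of the melanocyte markers, which share the neural crest origin, Tyr was at 0 in every library, and the list summed to 0.86 TPM or less except in praliciguat 3 (5.07 TPM). The part of these cell types in the myelin gene differences was not tested.

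Axonal RNA was scarce. Of 9 axonal or neuronal markers 3 had enough reads, Chat was at 0 in each of the 8 libraries, and Nefl, Nefh and Snap25 had mean levels of 0.02 TPM or less. Uchl1, a ubiquitin hydrolase of neurons that other cells can also express, was at 17.4, 6.97, 6.99 and 10.7 TPM in placebo and at 2.76, 2.29, 5.70 and 2.46 TPM with praliciguat. The groups did not overlap, and the log2 fold change was -1.64 ± 0.38 (edgeR adjusted p = 0.313; DESeq2 adjusted p = 0.00699). Prph, peripherin, an intermediate filament of peripheral neurons, was at 2.73, 0.96, 0.65 and 1.04 TPM in placebo and at 0.13, 0.20, 0.55 and 0.23 TPM with praliciguat (-2.22 ± 0.57, edgeR adjusted p = 0.364; DESeq2 adjusted p = 0.0391). Both were called by DESeq2 and not by edgeR. The Prph values rest on 55, 26, 17 and 26 counts in placebo and on 3, 5, 16 and 6 with praliciguat. Over the alternatives tried, the log2 fold change of Prph ran from -2.74 to -0.81. Stmn2, another neuronal gene, was at 3.31 ± 0.98 and 2.73 ± 0.70 TPM (SD, n = 4).

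Of 12 genes of signalling between axon and Schwann cell 11 were tested, and 7 were below 0. Bace1, the protease that activates neuregulin and is expressed in muscle, was at 9.47, 11.8, 11.4 and 13.8 TPM in placebo and at 16.6, 18.4, 14.9 and 17.0 TPM with praliciguat. All 4 praliciguat libraries lay above all 4 placebo libraries (0.58 ± 0.14, edgeR adjusted p = 0.314; DESeq2 adjusted p = 0.0366). Lgi4, a factor that Schwann cells secrete for myelination, was at 3.2, 1.75, 3.0 and 1.67 TPM in placebo and at 1.62, 1.04, 1.40 and 1.30 TPM with praliciguat. The groups lay apart in TPM and overlapped in CPM, and the change was -0.80 ± 0.26 (edgeR adjusted p = 0.577). Nrg1, the neuregulin gene, had a mean of 0.02 TPM or less in each group.

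Lipid synthesis genes that other tissues share were mostly above 0. Of 11 genes of cholesterol and sulfatide synthesis 10 were tested, 3 were below 0 with praliciguat (median 0.10), and 9 of the 10 were above 0 in the upper against the lower run (median 0.48). The untested gene was Gal3st1, the sulfatide enzyme of the list, with 2 to 17 counts per library. These numbers therefore do not cover sulfatide synthesis. Srebf2, which switches on cholesterol synthesis, had a log2 fold change of -0.22 ± 0.15, and Fdft1, an enzyme of that pathway, of 0.34 ± 0.25 (edgeR adjusted p = 0.984 for each). Srebf2 was at -0.11 without placebo 3, and Fdft1 at 0.15 without praliciguat 1 and 0.51 without praliciguat 3. These genes are active in muscle and fat as well. Of 8 tested genes that muscle raises when it loses its nerve, 7 were below 0 (median -0.13) and 0 were called. Musk, the kinase of the neuromuscular junction, was at -0.47 ± 0.22, and Chrnd, an acetylcholine receptor subunit, at -0.50 ± 0.52 (edgeR adjusted p = 0.912 and 0.984). Chrnd was at -0.02 without placebo 3.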

How the data were processed

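RNA sequencing was done on 8 libraries of ischemic muscle. Tri Reagent was used to extract the RNA and a stranded KAPA mRNA kit to make the libraries, per the labels' protocols. RSEM 1.2.28, STAR 2.5.3a, Trimmomatic, FastQC and the mm10 build appear in the submitters' processing notes. The strand setting was not given in the sources used here. The expected count column the authors deposited holds, per the file headers, RSEM's estimated counts, where a model splits the reads that related genes share. The deposited TPM column holds, per the file headers, RSEM's length-scaled values, used here for levels, sums and alternatives. Deposited FPKM values were not used here.

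Groups came from the labels, and replicates were numbered in accession order. Rounded expected counts were tested with edgeR 4.0.16 under R 4.3.3 (filterByExpr, scaling by TMM, quasi-likelihood F test with robust dispersion, two-sided, Benjamini-Hochberg over 13569 genes, threshold 0.05). DESeq2 1.42.0 and limma 3.58.1 were alternatives. Differences within a run are of log2(CPM + 0.1). A count of 0 allows up to 0.0875 CPM in the deepest library and 0.134 CPM in the shallowest (3 counts, counting error only). Paired libraries of a group differed beyond sampling noise (chi-square per degree of freedom 21.9 to 136). The test was checked on simulated counts. Coordinates and promoter windows are from RefSeq on GRCm38.p6 and exon overlaps from GENCODE; all 33 symbols matched.

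The genes and lists were chosen with earlier results of these data known. Values in every library are given for the most abundant gene and the gene of lowest p in each role group, for genes whose groups lie apart, and for Ngfr, Sox10, Egr2 and Mbp. From each other list the rule chose the 2 genes of lowest p. Of these, Gdnf, Ncam1, Bace1, Lgi4, Uchl1 and Prph are given by library and Srebf2, Fdft1, Musk and Chrnd by fold change, while lists of other cell types are given by counts and sums. Further genes, Prx and Gjb1 among them, were named after their values were seen. Alternatives were other scalings, filters, tests and units, an adjusted p under 0.1, leaving out each library, and a block for the run. The tests of the run, from the same fit as the block, and of its interaction with treatment were added after seeing the data.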

Additional observations from a re-analysis of the deposited data

Results flagged for a closer look

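In groups of 4 libraries, 15 of 120 group checks had a highest or lowest library whose gap to its nearest neighbour was wider, as a share of the group's range, than Dixon's 95% critical value, where chance gives about 1 in 20. Many of the genes vary together, so the 15 are not independent.

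Placebo 1 stood above the other 3 placebo libraries for Mal (6.51 TPM, next 3.57), Cnp (16.05 TPM, next 10.40), Pllp (3.68 TPM, next 1.37) and the summed myelinating genes (255.54 TPM, next 143.71). Placebo 3 stood above its group for Foxd3 (1.5 TPM), and for Col3a1, a fibroblast collagen (287.09 TPM), Adgre1, a macrophage receptor (5.63 TPM), Adipoq, the adiponectin gene (315.29 TPM), and Chrnd (7.37 TPM).

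Praliciguat 3 stood above its group for Nrcam (0.60 TPM), Ncam1 (5.71 TPM), Uchl1 (5.70 TPM), Cd68, a macrophage lysosomal protein (69.75 TPM), and Adgre1 (19.86 TPM). Praliciguat 4 stood below its group for Chrnd (0.67 TPM).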

How the results depend on the processing

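No paired analysis was possible because the labels carry no replicate numbers shared between the groups. The count of called genes in the set was 0 under all 19 alternatives. Over all genes, edgeR called 0 lower and 0 higher; the run as a block gave 3 lower, an adjusted p under 0.1 gave 11 lower, limma-voom 2 lower, and DESeq2 113 lower and 13 higher, and leaving out each library gave 0 to 5 lower and 0 higher. With a library left out, the genes of the set whose groups lay apart numbered 1 to 3, the set's median log2 fold change ran from -0.73 to -0.14, that of the myelinating genes from -0.88 to -0.13 and that of the repair genes from -0.33 (without praliciguat 3) to 0.19. The difference in the ratio of myelinating to repair TPM was -0.60, and -3.75 without Jun, Id2 and Ncam1, whose removal shrinks the denominator; with a library left out it ran from -0.79 to -0.32.

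Of 1060 values of named genes under the alternatives, 19 changed sign, all with a library left out. Without placebo 1 these were Cnp (0.047), S100b (0.21), Gjb1 (0.35), Plekhb1 (0.048) and Pllp (0.46), without placebo 2 and placebo 4 Nrcam (-0.00481 and -0.00547), and without placebo 3 Nfasc (-0.034). Without praliciguat 1 it was S100b (0.0021). Without praliciguat 3 they were Col3a1 (-0.26), Cd68 (-0.20), Adgre1 (-0.69), S100b (0.015), Nrcam (-0.52), Plekhb1 (0.15) and Pllp (0.14), and without praliciguat 4 Gjb1 (0.028), Plekhb1 (0.024) and Pllp (0.12). At the other end of their ranges with a library left out were Cnp at -0.23, S100b at -0.27, Gjb1 at -1.12, Plekhb1 at -0.24, Pllp at -0.52, Nrcam at 0.52, Nfasc at 0.57, Col3a1 at 1.14, Cd68 at 1.39 and Adgre1 at 1.84. Causes were not tested. In the set, depth limits Cmtm5, Gjb1 and Ugt8a most, with as few as 2, 1 and 4 counts in a library. Outside the set, Prph had as few as 3.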
